A study of Rattus norvegicus with 19 samples.

Results

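The left ventricles of rats with heart failure with preserved ejection fraction (HFpEF) that were treated with pirfenidone (PFD) were compared with those of healthy controls at week 9. The members were the 2 libraries titled PFD and the 3 libraries titled control at 9 weeks (control 9w), 5 of the 19 libraries of the series, with 1 heart per library. The question was which differences from healthy hearts remained under PFD alone. The 3 hearts that had the same disease protocol and were given PBS (untreated) were placed beside them to show which differences were also present without the drug. HFpEF hearts and controls taken at week 5 (control 5w) gave the difference before treatment. Hearts treated with empagliflozin (EMPA) or with both drugs entered the model of all groups and were not compared.

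The rats were Sprague-Dawley rats, 24 weeks old at the start, and the sample labels give all hearts as male. The diseased rats had L-NAME at 0.5 g/L in the drinking water and a diet with 60% of its energy from fat for 5 weeks, followed by 4 weeks of gavage. Whether L-NAME and the diet went on during these 4 weeks is not clear, for the discussion of the paper speaks of an induction over 9 weeks. PFD rats were gavaged with 0.3 g/kg/day of the drug and untreated rats with PBS. The authors left out another PFD sample because its file was corrupted. Control 9w rats shared strain, age and time point, ate normal chow and had no L-NAME, and no gavage is described for them. PFD hearts thus differ from them in L-NAME, diet and drug at once, and possibly in gavage. The model joins raised blood pressure with overfeeding over weeks, in rats without the long course, age and kidney disease of many patients.

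In HFpEF the ventricle pumps out a normal share of its blood but fills poorly, because its wall is stiff and its muscle relaxes slowly. PFD is an antifibrotic drug that lowers the output of collagen and of transforming growth factor beta in several organs. Heart muscle burns mainly fatty acids, and both its fuel genes and its conduction genes run on a daily clock, so that the hour at which a heart is taken bears on many transcripts.

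The libraries held 9879949 and 10366167 counts for PFD, 8141045, 7803050 and 9409670 for control 9w, and 9951011, 10142209 and 9640990 for untreated. Of the 17455 genes in the files, 12388 had enough counts to be tested with the quasi-likelihood test of edgeR. Levels are given as CPM, the counts of a gene scaled to the same total in every library, and changes as log2 fold changes with their standard error (SE). P-values were adjusted over all tested genes by the Benjamini-Hochberg (BH) method. A differentially expressed gene (DEG) had a BH-adjusted p below 0.05 in edgeR and a change of at least 2-fold. The hearts came from separate animals. The p-values rest on the spread between hearts within groups, estimated over all 19 libraries of the 7 groups, also those not compared.

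The libraries of the comparison did not match in sex-linked genes, although all were labelled male, while the series text speaks of equal numbers of males and females in each group. Eif2s3y, a translation factor gene of the Y chromosome, stood at 73.8, 75.4 and 73.9 CPM in control 9w and had 0 counts in both PFD hearts, at least 233-fold lower (BH-adjusted p = 0.0810 in edgeR). Ddx3 stood at 152, 165 and 146 CPM in control 9w and had 0 counts in both PFD hearts, at least 484-fold lower (BH-adjusted p = 0.0724 in edgeR). LOC100911498 ran the other way, from 0.338, 0.123 and 0.399 CPM in control 9w to 1718 and 1626 CPM in PFD. The 3 untreated libraries and HFpEF replicates 1 and 3 shared the PFD pattern, which made 7 Eif2s3y-negative and 12 Eif2s3y-positive libraries. The split coincided with PFD against control 9w, so an effect of disease or drug and an effect of whatever set these libraries apart cannot be told apart.

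Eif2s3, the paralog of Eif2s3y, chosen after its values were seen, stood at 130, 132 and 139 CPM in control 9w and at 288 and 257 CPM in PFD, without overlap. It rose by 1.03 (SE 0.21, BH-adjusted p = 0.0396 in edgeR), and its call was kept in 11 of 19 fits that each left out 1 library. Its change ran from 0.93 to 1.1 over these fits. Reads of near-identical genes such as Eif2s3 and Eif2s3y, or those of the RT1 family, can be assigned to the wrong copy. With a term for Eif2s3y counts in the model there were 3 DEGs between PFD and control 9w, Top2b and Cog2, which were also called without the term, and Nr1d1, which was not. The change of Eif2s3 was 0.09 with that term (BH-adjusted p = 0.872 in edgeR). Both PFD hearts lay within the range of the 9 Eif2s3y-positive libraries outside control 9w for 73 of the DEGs described below (86.3% of all tested genes).

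PFD and control 9w hearts differed by 97 DEGs (0.783% of the tested genes), 53 higher (0.428%) and 44 lower (0.355%) in PFD. At this share 0 DEGs do not set any of the gene lists below apart from all genes. At an unadjusted p below 0.05 there were 3008 genes, 1484 of them higher and 1524 lower. The lowest value in the comparison was a BH-adjusted p of 0.000132 in edgeR, for Top2b. For all 97 DEGs every PFD library lay above, or every PFD library lay below, the 3 control 9w libraries, a separation also found for 49.5% of all tested genes. The median log2 fold change of all tested genes was −0.03, and their median SE was 0.26. The median absolute log2 fold change of the DEGs was 1.42. DESeq2 called 437 DEGs, 258 higher and 179 lower, and these took in 94 of the 97. These DESeq2 counts and those at an unadjusted p below 0.05, out of 12388 tested genes, serve for the lists below.

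The size of this list depended on single libraries. In fits without PFD replicate 1 or without PFD replicate 2 there were 2 DEGs each, and without control 9w replicates 1 and 2 there were 5 and 4. The count was 187, 475 and 31 without untreated replicates 1, 2 and 3, although these libraries are not part of the comparison. It was also moved by leaving out control 5w replicate 2 (31) or 3 (23), HFpEF replicate 3 (51), either EMPA library (41 each), and EMPA + PFD replicate 2 (45) or 3 (48). Top2b was called in all 19 of these fits, 23 DEGs in at least 15 of them and 57 in fewer than 10. So the lists were longer without untreated replicate 2 and with DESeq2, and almost no call remained without either PFD library. A fit without a PFD library leaves 1 in the group, so few genes can pass. A call lost there does not show that the change was lost, and this holds for the single genes below. Fits without control 9w replicate 1 or 2 left more than 1 library per compared group. They kept 5 and 4 of the 97 calls. Of the DEGs named below, only Top2b, Bcl6, Sox17 and Lfng kept the call in these fits.

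Against the same 3 control 9w libraries, untreated hearts had 113 DEGs (0.912%), 42 higher and 71 lower. Of these, 33 were DEGs of PFD as well, all in the same direction, 13 higher and 20 lower. They made up 29.2% of the untreated DEGs and 34.0% of the PFD DEGs. The 2 comparisons share their controls, so a departure of the control 9w libraries enters both. The control 9w libraries lay wholly outside the other 16 libraries for 22 of the 33 and for 42 of the 97 (3.77% of all genes). Of the 33 shared DEGs, 0 differed between PFD and untreated in edgeR, by DESeq2 or at an unadjusted p below 0.05, and the median absolute log2 difference between the groups was 0.17. The highest was 1.32. These genes were selected as DEGs of both groups against the same controls, so a small difference between the groups is largely built in.

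The count of 33 moved with single libraries as the longer lists did. It was 2 without PFD replicate 1, 1 without PFD replicate 2, 4 without control 9w replicate 1 and 3 without control 9w replicate 2. Leaving out untreated replicates 1, 2 and 3 gave 11, 265 and 10. Fits without control 5w replicate 2 or 3 gave 15 and 12, without either EMPA library 20 each, and without EMPA + PFD replicate 2 it was 20. Of the 80 untreated DEGs that were not DEGs of PFD, 61 had an unadjusted p below 0.05 in PFD, beside 3008 of all 12388 tested genes, and their median absolute log2 fold change was 1.04 in PFD and 1.59 in untreated. None of the 113 differed between PFD and untreated after adjustment in edgeR or in DESeq2, with 21 at an unadjusted p below 0.05 (646 of all tested genes) and a lowest BH-adjusted p of 0.786 in edgeR.

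**Figure D1:**
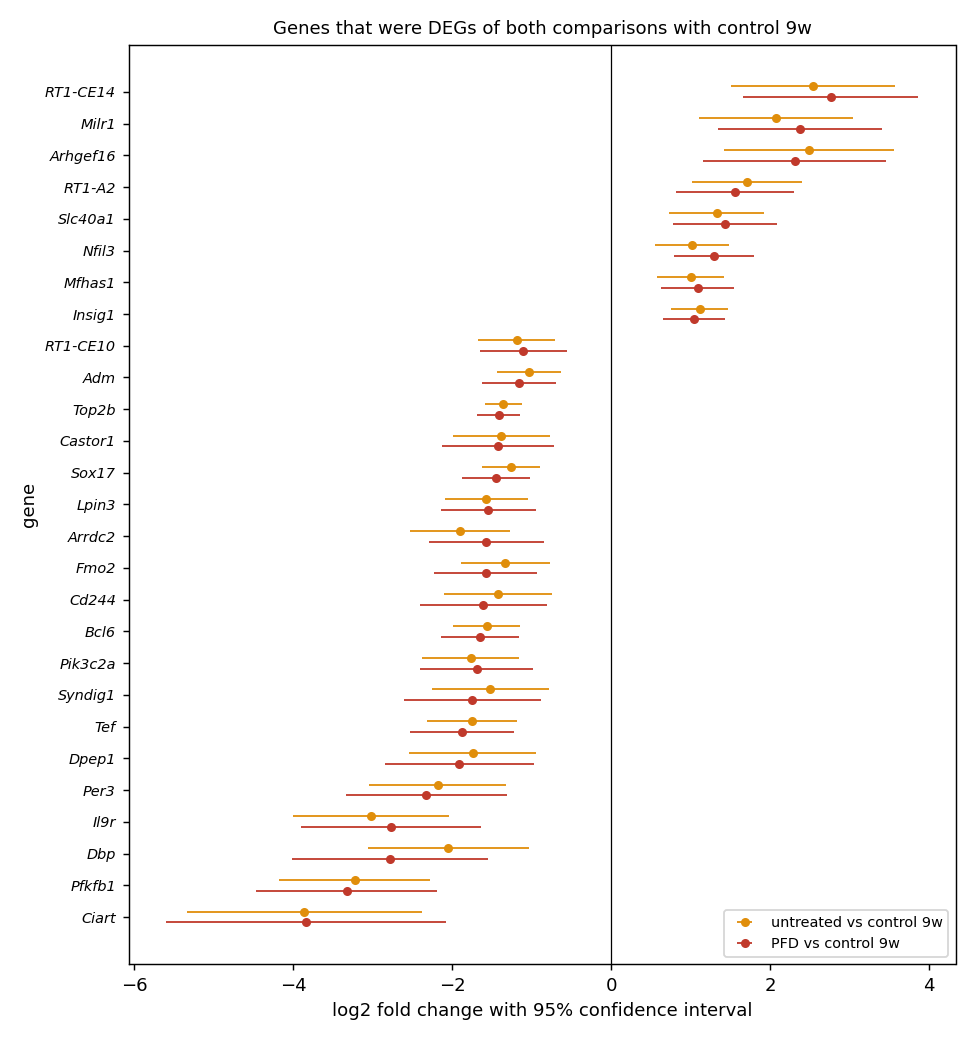
Log2 fold changes against control 9w of the DEGs that PFD and untreated hearts shared, drawn for 27 genes. LOC100911498, Slc27a2, RT1-N2 and LOC689065, with next to no counts in 1 group, were among those left out.

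Top2b, Bcl6, Sox17, Lfng and Fpgs are described first, and they were chosen after their values were seen. Top2b was called in 19 of 19 leave-one-out fits and Bcl6, Sox17 and Lfng in 17, the most of all DEGs. Fpgs was called in 15, as were other DEGs, and Angptl4 in 16. Top2b encodes the beta form of the DNA topoisomerase that relieves strain in DNA at active genes, and it is the form of non-dividing cells such as cardiomyocytes. It stood at 353, 374 and 294 CPM in control 9w and at 134 and 122 CPM in PFD. Every PFD heart lay far below every control 9w heart, and the fall was 1.42 on the log2 scale (SE 0.13, BH-adjusted p = 0.000132 in edgeR). In the untreated hearts the level was 133, 143 and 122 CPM, next to that of PFD. The group means were 131 CPM in control 5w, 130 CPM in HFpEF, 129 CPM in EMPA and 136 CPM in EMPA + PFD, so the 3 control 9w hearts alone stood apart. Among the leave-one-out fits the highest BH-adjusted p in edgeR for Top2b was 0.0186, without PFD replicate 2, and with the term for Eif2s3y counts it was 0.0187.

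Bcl6, a transcriptional repressor that acts in lymphocytes and in metabolic tissues, stood at 67.8, 47.1 and 65.4 CPM in control 9w and at 20.2 and 18.2 CPM in PFD. Both PFD hearts lay well below the lowest control, and the fall was 1.65 on the log2 scale (SE 0.23, BH-adjusted p = 0.0106 in edgeR). Untreated hearts had 18.4, 26.1 and 16.3 CPM, and the PFD values lay within that range. Sox17, a transcription factor of endothelial cells, stood at 247, 251 and 148 CPM in control 9w and at 80.2 and 77.7 CPM in PFD, a fall of 1.45 on the log2 scale (SE 0.20, BH-adjusted p = 0.0106 in edgeR). Its untreated values of 88.5, 91.6 and 89.8 CPM lay just above those of PFD. Bcl6 and Sox17 were each called in 17 of 19 leave-one-out fits. They lost the call without PFD replicate 1, with a BH-adjusted p of 0.147 for each in edgeR, and without PFD replicate 2, with 0.162 for each.

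Lfng, a sugar transferase that tunes Notch receptors, was a DEG of PFD but not of untreated hearts. It stood at 55.9, 60.0 and 45.6 CPM in control 9w and at 15.9 and 20.1 CPM in PFD, with the untreated hearts between them at 29.9, 24.0 and 31.7 CPM. The fall was 1.58 on the log2 scale (SE 0.22, BH-adjusted p = 0.0106 in edgeR), and without PFD replicates 1 and 2 it was 0.147 and 0.0619. Fpgs, which attaches glutamates to folate and so holds it in the cell, stood at 83.6, 89.5 and 78.2 CPM in control 9w and at 32.8 and 34.4 CPM in PFD. Here the fall was 1.32 on the log2 scale (SE 0.20, BH-adjusted p = 0.0228 in edgeR), and the call was kept in 15 of 19 leave-one-out fits but lost without PFD replicate 2 (BH-adjusted p = 0.171 in edgeR). The untreated hearts had 44.7, 80.1 and 50.6 CPM, all above PFD.

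**Figure D2:**
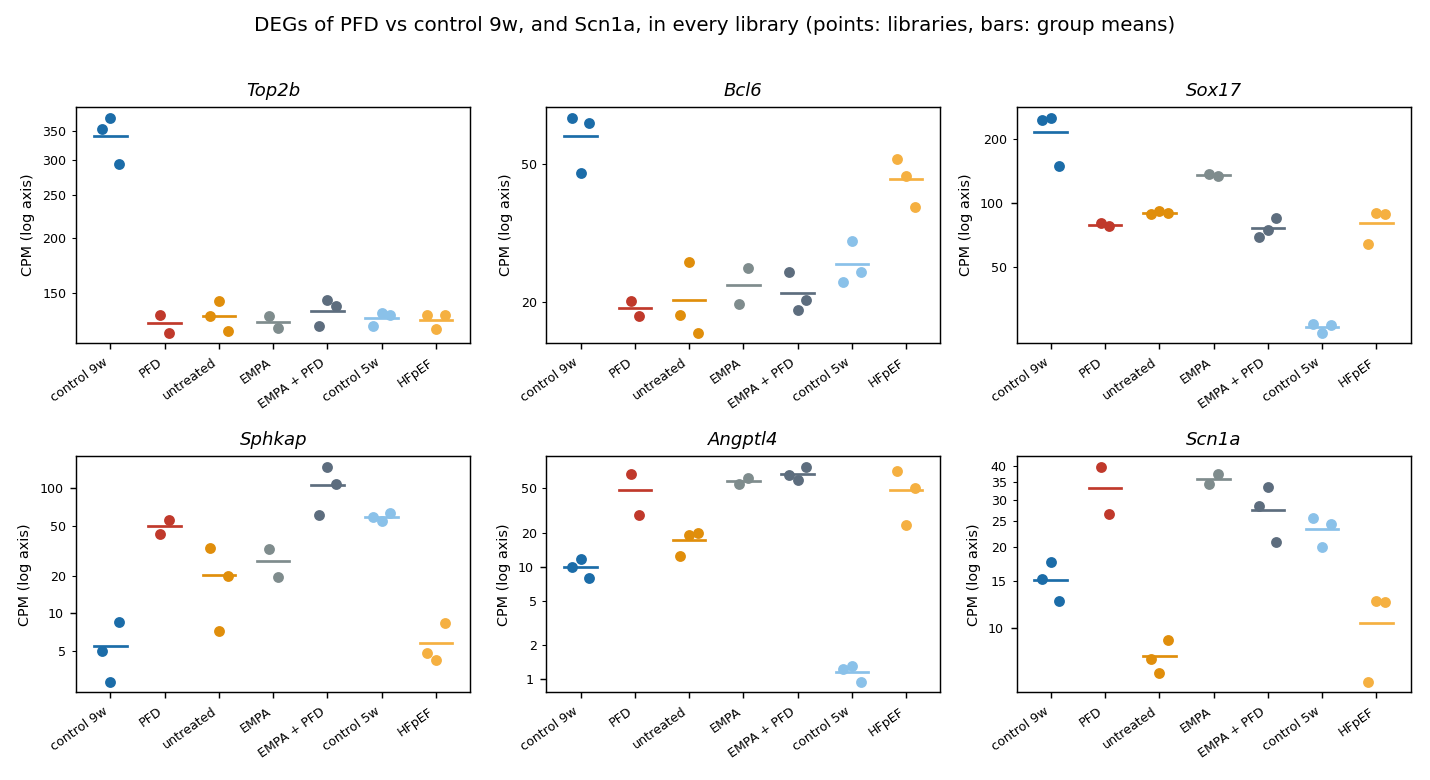
Levels of Top2b, Bcl6, Sox17, Sphkap, Angptl4 and Scn1a in each library of every group. Top2b stood at 353, 374 and 294 CPM in control 9w and at 134 and 122 CPM in PFD.

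The largest falls in PFD included Pfkfb1, Il9r and Tlx1. Pfkfb1, an enzyme that sets the level of the main activator of glycolysis and is best known from liver and skeletal muscle, stood at 22.3, 21.2 and 19 CPM in control 9w and at 1.75 and 2.37 CPM in PFD. It fell by 3.33 on the log2 scale (SE 0.53, BH-adjusted p = 0.0272 in edgeR), and untreated hearts at 2.00, 1.62 and 3.06 CPM overlapped the PFD hearts. Il9r, a cytokine receptor of lymphoid and mast cells, went from 6.54, 3.81 and 3.89 CPM to 0.329 and 1.03 CPM, a fall of 2.77 on the log2 scale (SE 0.53, BH-adjusted p = 0.0344 in edgeR). Il9r had 3 counts in PFD replicate 1 and 10 in PFD replicate 2, and its change ran from −3.81 to −2.20 over the leave-one-out fits. Tlx1, a homeobox factor, stood at 7.56, 12.8 and 7.98 CPM in control 9w and at 2.08 and 2.78 CPM in PFD. It fell by 1.95 on the log2 scale (SE 0.40, BH-adjusted p = 0.0397 in edgeR), and the untreated hearts at 6.22, 5.20 and 6.22 CPM lay between the groups. Without PFD replicate 1 the BH-adjusted p in edgeR was 0.191 for Pfkfb1, 0.199 for Il9r and 0.205 for Tlx1.

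Pik3c2a and LOC689065 were also chosen after their values were seen. Pik3c2a, a lipid kinase of endocytosis, stood at 307, 379 and 250 CPM in control 9w and at 122 and 71.2 CPM in PFD. All PFD values were below all control values, and the fall was 1.69 on the log2 scale (SE 0.33, BH-adjusted p = 0.0345 in edgeR). The untreated hearts, at 86.2, 103 and 85.9 CPM, lay within the PFD range. The call was lost without PFD replicate 2 (BH-adjusted p = 0.251 in edgeR). LOC689065 had at most 1 count in each PFD heart and stood at 1.80, 2.34 and 1.40 CPM in control 9w, at least 5.79-fold lower in PFD. Slc27a2, a fatty acid transporter, had 0 counts in all 3 control 9w hearts and stood at 1.10 and 6.89 CPM in PFD, at least 11.9-fold higher by the mean of the 2 hearts. Most of that mean came from PFD replicate 2, and without it the call was lost (BH-adjusted p = 0.229 in edgeR).

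Among 15 tested genes of the circadian clock, 1 was a DEG higher in PFD and 5 were lower, beside 0.428% and 0.355% of all tested genes. The median log2 fold change was −0.61 beside −0.03 for all genes. It was −0.82 without PFD replicate 1 and −0.29 without PFD replicate 2. At an unadjusted p below 0.05 there were 4 higher and 8 lower genes, beside 1484 and 1524 of all 12388. Tef, an activator of clock output genes, stood at 295, 305 and 249 CPM in control 9w and at 77.2 and 76.7 CPM in PFD, far apart and with a fall of 1.88 on the log2 scale (SE 0.31, BH-adjusted p = 0.0272 in edgeR). Its relative Dbp stood at 207, 203 and 183 CPM in control 9w and at 23.0 and 34.4 CPM in PFD, a fall of 2.78 on the log2 scale (SE 0.58, BH-adjusted p = 0.0423 in edgeR). Nfil3, which represses from the same DNA sites, rose from 12.2, 13.8 and 10.7 CPM to 30.1 and 29.6 CPM, by 1.29 (SE 0.24, BH-adjusted p = 0.0308 in edgeR).

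Ciart, a repressor within the clock loop, stood at 40.4, 39.7 and 39.2 CPM in control 9w and at 3.18 and 2.37 CPM in PFD. This was the largest fall of the clock genes, 3.84 on the log2 scale (SE 0.83, BH-adjusted p = 0.0441 in edgeR). Per3 stood at 130, 136 and 122 CPM in control 9w and at 23.2 and 28.3 CPM in PFD, and fell by 2.32 on the log2 scale (SE 0.47, BH-adjusted p = 0.0396 in edgeR). Nr1d2, chosen after its values were seen, stood at 318, 312 and 272 CPM in control 9w and at 143 and 137 CPM in PFD, and fell by 1.10 on the log2 scale (SE 0.26, BH-adjusted p = 0.0489 in edgeR). For all 6 genes the control 9w and PFD hearts did not overlap, and within each group the values lay close together.

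The clock calls rested on few libraries. In leave-one-out fits Tef and Nfil3 were called in 15 of 19, Ciart, Dbp and Per3 in 9 and Nr1d2 in 5. Over these fits the change ran from −1.96 to −1.82 for Tef, from 1.2 to 1.39 for Nfil3 and from −4.07 to −3.65 for Ciart. It ran from −3.11 to −2.53 for Dbp, from −2.48 to −2.2 for Per3 and from −1.17 to −1.06 for Nr1d2. Per2 and Arntl, also chosen after their values were seen, did not pass. Per2 stood at 240, 286 and 210 CPM in control 9w and at 71.3 and 30.8 CPM in PFD (−2.26, SE 0.67, BH-adjusted p = 0.0769 in edgeR). Arntl, the partner of the clock activator, stood at 14.1, 17.5 and 16.5 CPM in control 9w and at 61.7 and 76.7 CPM in PFD (2.11, SE 0.69, BH-adjusted p = 0.0938 in edgeR).

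The clock pattern was shared with untreated hearts, whose list median was −0.91 against the same controls. Dbp in untreated hearts was 55.6, 41.1 and 46.8 CPM, between control 9w and PFD. Ciart in untreated hearts was 2.64, 2.11 and 3.48 CPM, Per3 was 25.0, 31.8 and 28.3 CPM, and Tef was 93.9, 70.1 and 88.9 CPM, beside or within the PFD values. At week 5 the list median was 0.09 in HFpEF against control 5w. The control 5w means of Ciart, Dbp, Per3 and Tef were 3.58, 64.6, 33.8 and 124 CPM, each nearer to PFD than to control 9w. The hour at which the hearts were taken was not given, so an effect of harvest time and an effect of disease or drug cannot be told apart.

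**Figure D3:**
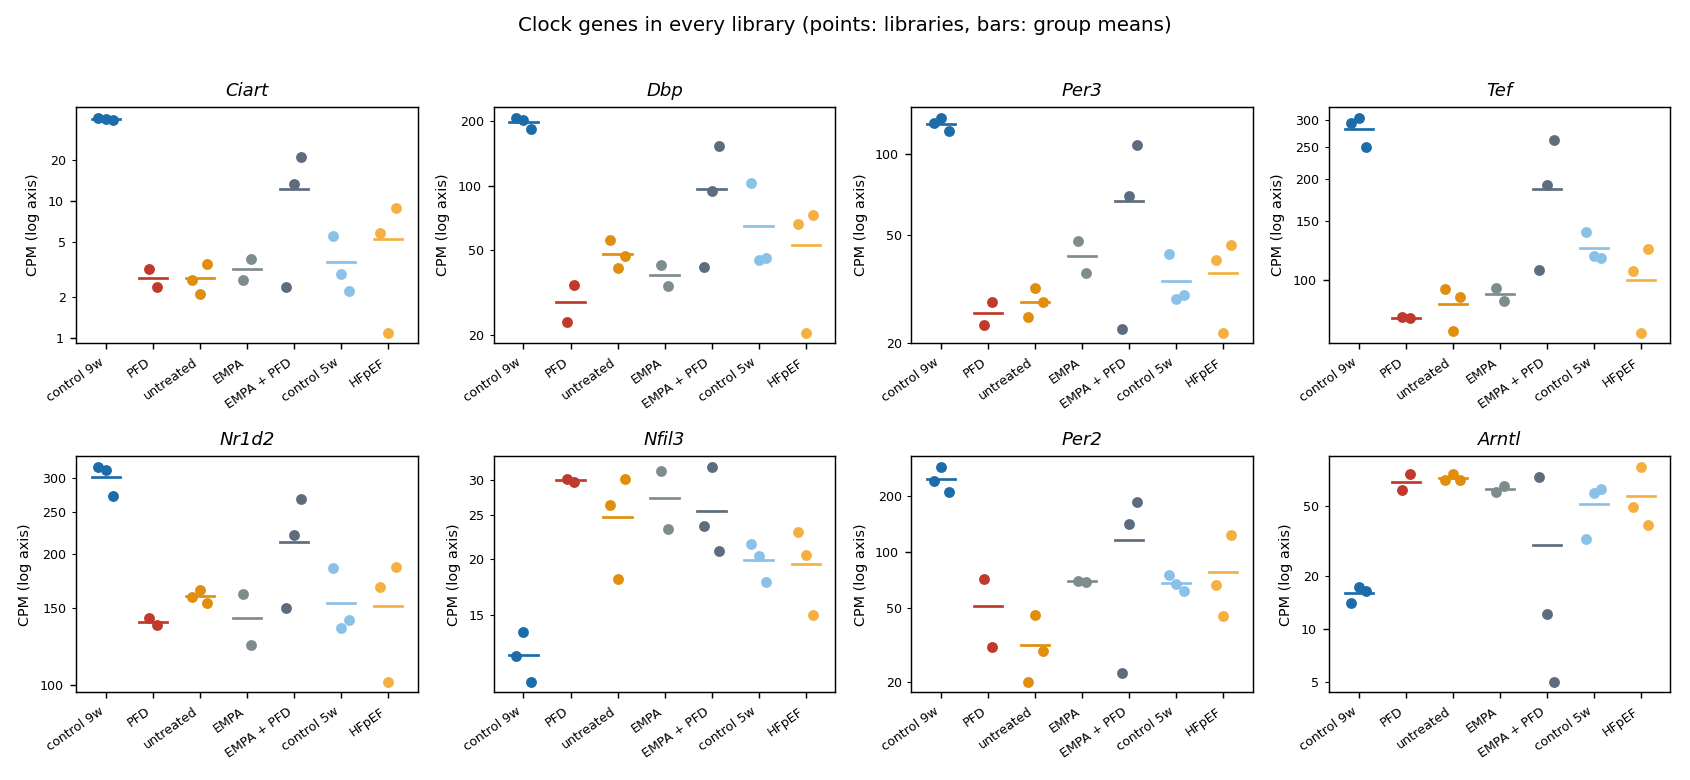
Levels of clock genes in each library of every group. Ciart stood at 40.4, 39.7 and 39.2 CPM in control 9w and at 3.18 and 2.37 CPM in PFD.

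The promoters of the clock genes are shown because the clock acts in part through 2 short DNA sites. These are the E-box CACGTG, bound by Clock and Arntl, and the D-box TTATGTAA, bound by Dbp, Tef and Nfil3. Other sites were not searched. Windows from 250 bases before to 50 after the transcription start were read from the RefSeq genes of the GRCr8 assembly and searched on both strands. Of 14 clock genes with a window, 4 held an E-box and 1 held a D-box, while 6.42% of 33469 promoters held an E-box and 0.89% a D-box. Among the 6 clock DEGs, 2 held an E-box, Ciart with 3 copies and Tef with 1, and 0 held a D-box, for which no test was made. Per2 held the D-box. Capitals mark the motifs, each sequence is written along the strand of its gene, and a match describes the sequence only. The windows are Ciart at chr2:186112197-186112496 on the − strand, Tef at chr7:115206577-115206876 on the + strand and Per2 at chr9:99496944-99497243 on the − strand.
Ciart: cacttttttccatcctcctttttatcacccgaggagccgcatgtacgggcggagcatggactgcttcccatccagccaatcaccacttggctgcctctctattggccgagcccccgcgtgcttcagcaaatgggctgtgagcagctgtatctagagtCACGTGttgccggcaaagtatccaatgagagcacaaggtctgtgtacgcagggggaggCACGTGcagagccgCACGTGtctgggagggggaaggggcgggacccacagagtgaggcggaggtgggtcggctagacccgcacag
Tef: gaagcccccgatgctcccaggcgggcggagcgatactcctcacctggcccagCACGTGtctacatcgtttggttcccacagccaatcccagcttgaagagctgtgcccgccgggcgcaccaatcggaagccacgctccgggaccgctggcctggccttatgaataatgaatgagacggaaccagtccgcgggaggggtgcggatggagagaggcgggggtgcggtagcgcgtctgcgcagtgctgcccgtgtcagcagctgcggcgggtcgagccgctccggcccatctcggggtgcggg
Per2: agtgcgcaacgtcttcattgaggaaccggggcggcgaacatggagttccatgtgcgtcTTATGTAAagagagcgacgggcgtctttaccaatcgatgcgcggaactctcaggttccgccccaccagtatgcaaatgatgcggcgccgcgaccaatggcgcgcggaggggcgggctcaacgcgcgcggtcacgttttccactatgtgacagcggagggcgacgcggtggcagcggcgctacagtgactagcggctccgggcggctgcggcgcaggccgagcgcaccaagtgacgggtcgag

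Insig1 and Cyp51, genes of the sterol supply that were chosen after their values were seen, rose in PFD. Insig1, which holds back the sterol-sensing factor in the endoplasmic reticulum, stood at 57.0, 52.4 and 72.7 CPM in control 9w and at 122 and 129 CPM in PFD, a rise of 1.05 (SE 0.18, BH-adjusted p = 0.0272 in edgeR). Cyp51, an enzyme of cholesterol synthesis, stood at 33.2, 28.8 and 38.0 CPM in control 9w and at 71.4 and 63.9 CPM in PFD, a rise of 1.02 (SE 0.22, BH-adjusted p = 0.0441 in edgeR). In both genes the lowest PFD heart exceeded the highest control heart.

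Untreated hearts stood at 144, 108 and 143 CPM for Insig1, levels that overlapped those of PFD. Without PFD replicate 2 the BH-adjusted p in edgeR was 0.217 for Insig1 and 0.221 for Cyp51, and the calls were kept in 15 and 8 of 19 leave-one-out fits. Other genes of the pathway, also chosen after their values were seen, did not pass the test in PFD. Their log2 fold changes and BH-adjusted p-values in edgeR were 1.20 and 0.0725 for Fdft1, 1.02 and 0.0867 for Idi1, and 0.65 and 0.0937 for Hmgcs1. For Sqle they were 0.47 and 0.206.

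Fuel genes were higher in PFD than in control 9w by their list medians. Cardiomyocyte markers were higher too, with a median of 0.84, and the part of either in the other was not tested. In the list of PPAR-alpha targets and ketone metabolism, 3 of 14 tested genes were DEGs, all higher, and the median was 1.11, with 9 genes higher and 0 lower at an unadjusted p below 0.05. DESeq2 called 5 higher. Of all tested genes, 0.428% were DEGs higher in PFD. At an unadjusted p below 0.05, 1484 of all 12388 were higher and 1524 lower, which also serves for the fuel lists below. Angptl4, an inhibitor of lipoprotein lipase, stood at 9.93, 11.8 and 7.98 CPM in control 9w and at 66.2 and 29.1 CPM in PFD, a rise of 2.27 (SE 0.39, BH-adjusted p = 0.0272 in edgeR). Pdk4, which closes the entry of sugar carbon into mitochondria, stood at 105, 153 and 93.3 CPM in control 9w and at 932 and 610 CPM in PFD, a rise of 2.72 (SE 0.65, BH-adjusted p = 0.0499 in edgeR). Plin2, a coat protein of lipid droplets, stood at 73.1, 61.9 and 88.2 CPM in control 9w and at 166 and 134 CPM in PFD, a rise of 1.01 (SE 0.23, BH-adjusted p = 0.0485 in edgeR). All 3 genes had their PFD hearts above their control hearts.

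The untreated hearts stood below both PFD hearts for Angptl4, at 12.4, 19.2 and 19.8 CPM. The difference between PFD and untreated was 1.47 for Angptl4 (BH-adjusted p = 0.786 in edgeR). Pdk4 in untreated hearts was 413, 124 and 346 CPM, also below PFD, with replicate 2 at the control level. In leave-one-out fits Angptl4 was called in 16 of 19 and lost the call without PFD replicate 1 (BH-adjusted p = 0.193 in edgeR). Pdk4 and Plin2 were called in 6 of 19 each, with a BH-adjusted p in edgeR of 0.221 for each without PFD replicate 2. Acot1, which frees fatty acids from coenzyme A, stood at 1.13, 0.861 and 0.897 CPM in control 9w and at 5.04 and 8.13 CPM in PFD (2.76, BH-adjusted p = 0.0501 in edgeR). It missed the threshold and was chosen after its values were seen.

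Glycolysis held 1 DEG among 19 tested genes, Eno1, and a list median of 0.99, with 11 genes higher and 0 lower at an unadjusted p below 0.05. DESeq2 called 7 of these genes higher. Eno1, the enolase of most tissues, stood at 305, 322 and 347 CPM in control 9w and at 646 and 984 CPM in PFD, a rise of 1.33 (SE 0.29, BH-adjusted p = 0.0448 in edgeR). Its BH-adjusted p in edgeR was 0.275 without PFD replicate 2. The untreated hearts, at 576, 298 and 485 CPM, lay below both PFD hearts. In the tricarboxylic acid cycle 0 of 19 genes were DEGs in edgeR, 15 were higher and 0 lower at an unadjusted p below 0.05, DESeq2 called 10 higher, and the median was 1.17.

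Fatty acid uptake and oxidation had 0 DEGs of 25 in edgeR, 14 higher and 0 lower genes at an unadjusted p below 0.05, 9 higher DEGs by DESeq2 and a median of 1.35. Acadm, an acyl-CoA dehydrogenase chosen after its values were seen, stood at 388, 429 and 375 CPM in control 9w and at 1225 and 1920 CPM in PFD (1.98, SE 0.65, BH-adjusted p = 0.0950 in edgeR). Fabp3, the gene picked by the rule, stood at 1293, 1562 and 1177 CPM in control 9w and at 3163 and 3674 CPM in PFD (1.35, SE 0.72, BH-adjusted p = 0.262 in edgeR). Oxidative phosphorylation had 0 DEGs of 55 in edgeR, 14 higher and 0 lower at an unadjusted p below 0.05, 4 higher by DESeq2 and a median of 0.55. Atp5f1b, a subunit of ATP synthase, stood at 3613, 4393 and 4006 CPM in control 9w and at 8574 and 8898 CPM in PFD (1.13, SE 0.43, BH-adjusted p = 0.131 in edgeR). For Acadm and Atp5f1b the PFD hearts lay above all control hearts. In untreated hearts the medians were lower, 0.75 for fatty acid uptake and oxidation, 0.72 for the tricarboxylic acid cycle, 0.48 for glycolysis and 0.15 for oxidative phosphorylation.

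**Figure D4:**
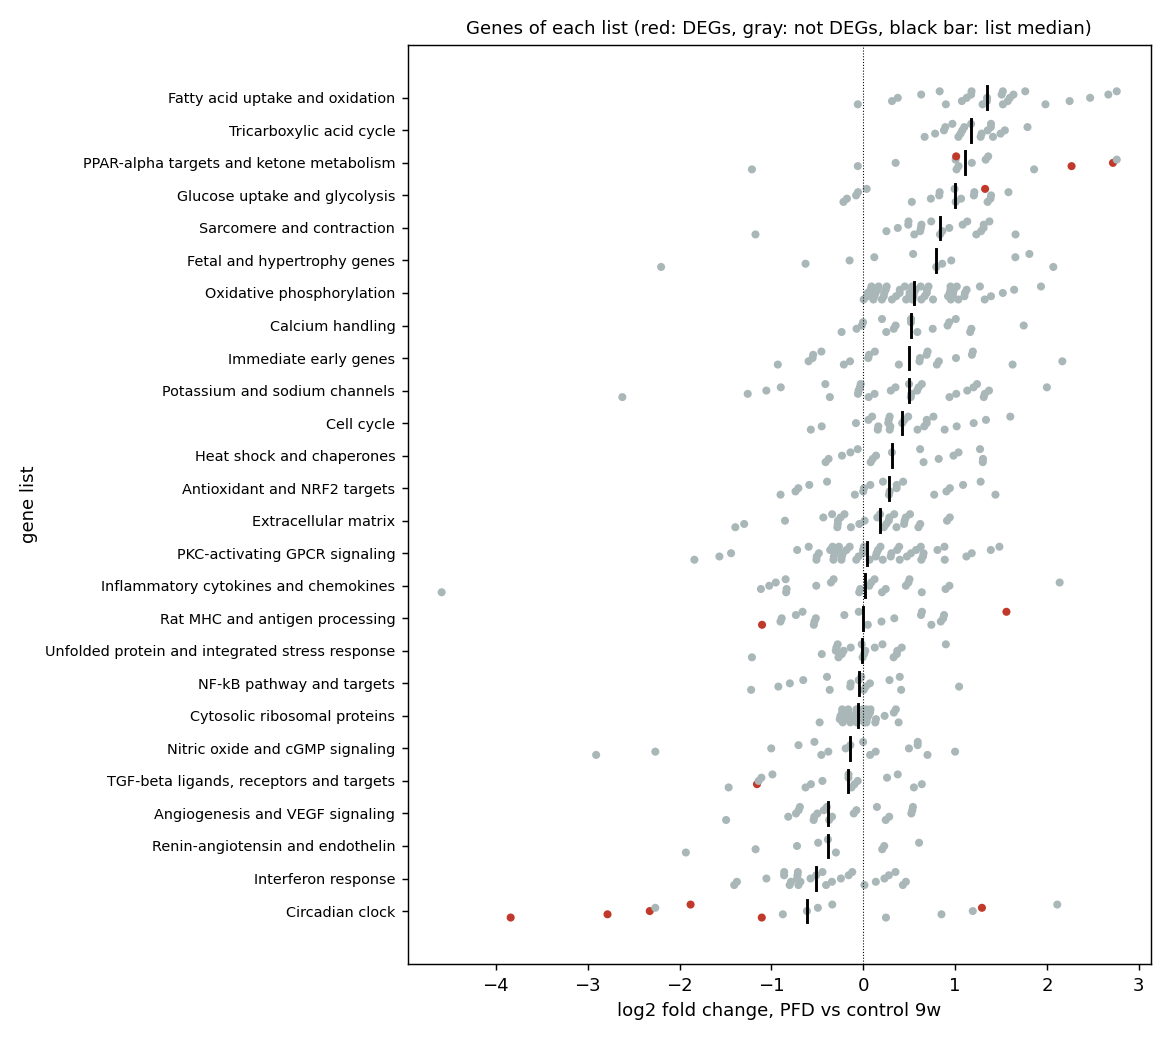
Log2 fold changes of PFD against control 9w for the genes of each process list, with a bar at the list median. DEGs are in red, and Sln, at −8.66, is not drawn. The median of fatty acid uptake and oxidation stood at 1.35. The HFpEF median of that list, −0.60 against control 5w, is not drawn.

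Sphkap, Cavin4 and Casq1 were among the DEGs higher in PFD, while the lists of muscle genes given below held no DEG. Sphkap, which anchors protein kinase A in heart muscle, stood at 4.96, 2.83 and 8.48 CPM in control 9w and at 42.9 and 56.2 CPM in PFD, and it rose by 3.17 (SE 0.55, BH-adjusted p = 0.0272 in edgeR). Cavin4, a coat protein of muscle caveolae, stood at 9.48, 5.66 and 11.6 CPM in control 9w and at 78.4 and 72.2 CPM in PFD, a rise of 3.07 (SE 0.65, BH-adjusted p = 0.0437 in edgeR). Both had wide gaps between the groups. Casq1, the calcium store protein of fast muscle, also chosen after its values were seen, stood at 18.3, 16.0 and 15.0 CPM in control 9w and at 53.3 and 68.6 CPM in PFD, a rise of 1.89 (SE 0.37, BH-adjusted p = 0.0345 in edgeR). Without PFD replicate 2 the BH-adjusted p in edgeR was 0.181 for Sphkap, 0.221 for Cavin4 and 0.224 for Casq1. The calls were kept in 15, 8 and 13 of 19 leave-one-out fits.

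Eef1a2, Lbh and Myocd, chosen after their values were seen, had the same shape. Eef1a2, the translation elongation factor of muscle and nerve, stood at 95.1, 79.6 and 144 CPM in control 9w and at 665 and 766 CPM in PFD, a rise of 2.75 (SE 0.64, BH-adjusted p = 0.0487 in edgeR). Lbh, a cofactor of heart and limb development, stood at 203, 156 and 205 CPM in control 9w and at 539 and 1040 CPM in PFD, a rise of 2.07 (SE 0.45, BH-adjusted p = 0.0441 in edgeR). Myocd, the coactivator of smooth and heart muscle genes, stood at 24.9, 33.1 and 29.3 CPM in control 9w and at 75.0 and 72.6 CPM in PFD, a rise of 1.34 (SE 0.30, BH-adjusted p = 0.0467 in edgeR). Each was above the controls in both PFD hearts. The BH-adjusted p in edgeR rose to 0.240 for Eef1a2, 0.274 for Lbh and 0.228 for Myocd without PFD replicate 2.

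Among untreated hearts the muscle genes were split. Untreated replicate 2 stood at 76.9 CPM for Eef1a2, 194 CPM for Lbh and 26.8 CPM for Myocd, at the level of control 9w. Untreated replicates 1 and 3 stood at 794 and 467 CPM for Eef1a2, 978 and 637 CPM for Lbh and 61.4 and 56.2 CPM for Myocd, near the PFD level. Sphkap in untreated hearts was 33.2, 7.23 and 19.7 CPM, and Cavin4 was 64.9, 9.58 and 64.0 CPM, again with replicate 2 lowest. None of these 5 genes was a DEG of untreated against control 9w. Untreated replicate 2 also had an atrial marker sum of 14986 CPM, beside 77.9 and 505 CPM in untreated replicates 1 and 3. Its cardiomyocyte marker sum was the lowest of the untreated hearts, and its fibroblast and leukocyte marker sums were the highest. The part of this in the split was not tested. Without untreated replicate 2 the fit called 475 DEGs of PFD against control 9w and 413 of untreated against control 9w.

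Dyrk3 rose in PFD with an uneven spread between the 2 hearts. This kinase that dissolves condensates in the cell stood at 2.59, 3.07 and 2.29 CPM in control 9w and at 33.0 and 9.98 CPM in PFD, a rise of 3.01 (SE 0.72, BH-adjusted p = 0.0499 in edgeR). It was called in 5 of 19 leave-one-out fits and not without PFD replicate 1 (BH-adjusted p = 0.288 in edgeR). Untreated replicates 2 and 3 stood at 7.23 and 8.01 CPM for Dyrk3, and replicate 1 just above the lower PFD heart.

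Fcrla and Arhgef16 rose from very low levels. Fcrla, a protein of B cells, stood at 0.338, 0.123 and 0.499 CPM in control 9w and at 9.31 and 1.85 CPM in PFD, a rise of 4.03 (SE 0.94, BH-adjusted p = 0.0485 in edgeR). Without PFD replicate 1 the rise of Fcrla was 2.45. The untreated hearts stood at 0, 0.812 and 0.421 CPM, and PFD and untreated did not differ by the test (3.66, BH-adjusted p = 0.786 in edgeR). Arhgef16, an activator of small GTPases, stood at 1.02, 0.246 and 0.399 CPM in control 9w and at 2.30 and 3.29 CPM in PFD, a rise of 2.31 (SE 0.54, BH-adjusted p = 0.0487 in edgeR). Its untreated values, 4.01, 3.09 and 2.42 CPM, overlapped those of PFD. The BH-adjusted p in edgeR was 0.302 for Fcrla without PFD replicate 1 and 0.268 for Arhgef16 without PFD replicate 2.

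In the lists of contraction, 0 of 21 sarcomere genes were DEGs in edgeR, with 9 higher and 1 lower at an unadjusted p below 0.05, 2 higher by DESeq2 and a median of 0.84. Myh6, the fast myosin heavy chain of the rat ventricle, stood at 9613, 10731 and 11270 CPM in control 9w and at 13810 and 21389 CPM in PFD (0.74, SE 0.81, BH-adjusted p = 0.610 in edgeR). Its slow partner Myh7 stood at 5114, 5300 and 4234 CPM in control 9w and at 11275 and 6442 CPM in PFD (0.86, SE 0.78, BH-adjusted p = 0.525 in edgeR). Both PFD hearts lay above the controls for both myosins, with SEs as large as the changes. Calcium handling held 0 DEGs of 19 in edgeR, 5 higher and 1 lower at an unadjusted p below 0.05, 1 higher and 1 lower by DESeq2, and a median of 0.52. Atp2a2, the calcium pump that relaxes the muscle, stood at 4400, 3863 and 5805 CPM in control 9w and at 8367 and 9351 CPM in PFD (0.92, BH-adjusted p = 0.298 in edgeR).

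The fetal and hypertrophy genes held 0 DEGs of 11 in edgeR, 4 higher and 0 lower at an unadjusted p below 0.05, 1 higher by DESeq2 and a median of 0.79. Nppa, the atrial natriuretic peptide, stood at 3622, 173 and 16877 CPM in control 9w and at 2943 and 53.8 CPM in PFD (−2.20, SE 2.05, BH-adjusted p = 0.541 in edgeR), a spread within each group far larger than that between them. Its change was −7.01 without PFD replicate 1 and −0.34 without control 9w replicate 3. Nppb, the brain natriuretic peptide, stood at 184, 125 and 582 CPM in control 9w and at 532 and 114 CPM in PFD, with overlap (0.12, SE 0.69, BH-adjusted p = 0.936 in edgeR). Without PFD replicate 1 the change of Nppb was −1.39. Acta1, the skeletal actin of stressed hearts, stood at 488, 547 and 569 CPM in control 9w and at 2837 and 909 CPM in PFD (1.81, SE 0.74, BH-adjusted p = 0.152 in edgeR).

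Fibrosis genes, the targets for which PFD is used, showed no DEG, beside 0.783% of all tested genes. At that share 0 DEGs do not set a list of this size apart. The extracellular matrix list had 0 DEGs of 29 in edgeR, 1 higher and 0 lower at an unadjusted p below 0.05, 0 by DESeq2 and a median of 0.18. Col1a1, the main chain of fibrillar collagen, stood at 325, 205 and 402 CPM in control 9w and at 520 and 364 CPM in PFD, with overlap (0.51, SE 0.93, BH-adjusted p = 0.772 in edgeR). Col3a1 stood at 1450, 1023 and 1766 CPM in control 9w and at 1950 and 1351 CPM in PFD, with overlap too (0.22, SE 0.80, BH-adjusted p = 0.892 in edgeR). Postn, made by activated fibroblasts, stood at 46.4, 35.4 and 130 CPM in control 9w and at 168 and 25.5 CPM in PFD (0.45, SE 1.30, BH-adjusted p = 0.861 in edgeR). The sign was negative without PFD replicate 1 for Col3a1, at −0.07, and for Postn, at −1.48.

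The list of TGF-beta ligands, receptors and targets held 1 DEG of 17, Smad7, which was lower, beside 0.355% of all tested genes. It had a median of −0.16. At an unadjusted p below 0.05, 1 gene was higher and 2 were lower, beside 1484 and 1524 of all 12388. DESeq2 called 0 higher and 2 lower, beside 258 and 179 of all 12388. The median was −0.52 without PFD replicate 1. Smad7, an inhibitor that the pathway induces, stood at 122, 104 and 132 CPM in control 9w and at 50.9 and 56.4 CPM in PFD, a fall of 1.16 on the log2 scale (SE 0.22, BH-adjusted p = 0.0335 in edgeR). The untreated hearts, at 70.2, 111 and 76.3 CPM, lay above both PFD hearts. Id1, a target of bone morphogenetic protein signals that was chosen after its values were seen, stood at 415, 460 and 305 CPM in control 9w and at 102 and 159 CPM in PFD. It fell by 1.59 on the log2 scale (SE 0.27, BH-adjusted p = 0.0272 in edgeR), with untreated hearts between at 221, 243 and 237 CPM. Tgfb1 itself stood at 59.8, 69.1 and 54.0 CPM in control 9w and at 56.1 and 53.0 CPM in PFD, with overlap (−0.16, SE 0.20, BH-adjusted p = 0.658 in edgeR). Without PFD replicate 1 the BH-adjusted p in edgeR was 0.193 for Smad7 and 0.193 for Id1.

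Adm and Sgk1, chosen after their values were seen, are signals of vessels and of steroid hormones. Adm, the vasodilator adrenomedullin, stood at 44.4, 56.8 and 43.5 CPM in control 9w and at 23.4 and 19.8 CPM in PFD, a fall of 1.16 on the log2 scale (SE 0.22, BH-adjusted p = 0.0326 in edgeR). Sgk1, a kinase induced by glucocorticoids, stood at 479, 536 and 330 CPM in control 9w and at 208 and 217 CPM in PFD, a fall of 1.08 on the log2 scale (SE 0.24, BH-adjusted p = 0.0467 in edgeR). No PFD heart reached the lowest control in either gene. Untreated hearts stood at 22.4, 30.4 and 17.6 CPM for Adm and at 220, 230 and 275 CPM for Sgk1, close to PFD. The BH-adjusted p in edgeR without PFD replicate 2 was 0.229 for Adm and 0.244 for Sgk1.

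The interferon, cytokine and NF-kB lists held no DEG in edgeR, beside 0.783% of all tested genes. The interferon response had 0 DEGs of 27 in edgeR and a median of −0.51. At an unadjusted p below 0.05, 1 gene was higher and 11 were lower, beside 1484 and 1524 of all 12388. DESeq2 called 3 lower, beside 179 of all 12388. Irf7, a driver of that response chosen after its values were seen, stood at 220, 245 and 129 CPM in control 9w and at 99.1 and 53.5 CPM in PFD, below all controls (−1.38, BH-adjusted p = 0.0611 in edgeR). Ifi27, the gene picked by the rule, stood at 574, 689 and 429 CPM in control 9w and at 436 and 185 CPM in PFD. These values overlapped (−0.86, SE 0.34, BH-adjusted p = 0.140 in edgeR). Inflammatory cytokines and chemokines had 0 DEGs of 24 in edgeR, 0 higher and 2 lower at an unadjusted p below 0.05, 0 by DESeq2 and a median of 0.02. The NF-kB list had 0 of 17 in edgeR, 1 higher and 2 lower at an unadjusted p below 0.05, 1 higher by DESeq2 and a median of −0.05.

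The rat major histocompatibility (RT1) list held 1 DEG higher and 1 lower in PFD among 20 tested genes, with a median of 0.00. Of all tested genes, 0.428% were DEGs higher and 0.355% DEGs lower. RT1-A2, a class I gene that presents peptides to killer cells, stood at 24.9, 25.5 and 22.2 CPM in control 9w and at 78.3 and 64.3 CPM in PFD, a rise of 1.56 (SE 0.35, BH-adjusted p = 0.0467 in edgeR). RT1-CE10 stood at 44.2, 50.9 and 33.4 CPM in control 9w and at 19.7 and 20.2 CPM in PFD, a fall of 1.10 on the log2 scale (SE 0.26, BH-adjusted p = 0.0488 in edgeR). RT1-CE14, outside the list, stood at 1.92, 1.11 and 1.30 CPM in control 9w and at 11.4 and 8.33 CPM in PFD, a rise of 2.76 (SE 0.52, BH-adjusted p = 0.0326 in edgeR). The untreated values were close to those of PFD, at 80.6, 73.9 and 83.0 CPM for RT1-A2, 15.6, 15.3 and 25.4 CPM for RT1-CE10 and 7.81, 9.09 and 8.43 CPM for RT1-CE14. RT1-CE16 stood at 104, 101 and 91.0 CPM in control 9w and at 50.7 and 56.1 CPM in PFD, below all controls, and did not pass. It had at most 3 counts in every library of control 5w, HFpEF and EMPA, and RT1-Bb, at 22.0, 18.1 and 18.2 CPM in control 9w and 12.1 and 14.7 CPM in PFD, had 0 counts in those libraries. Inherited RT1 types differ between rats, and the genotypes were not given. When PFD replicate 2 was left out, the BH-adjusted p in edgeR was 0.221, 0.268 and 0.171 for RT1-A2, RT1-CE10 and RT1-CE14.

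The lists of vessel and signaling genes held no DEG in edgeR, beside 0.783% of all tested genes. Angiogenesis and VEGF signaling had 0 of 20, 1 higher and 3 lower at an unadjusted p below 0.05, 0 by DESeq2 and a median of −0.38. Nitric oxide and cGMP signaling, the pathway that L-NAME blocks, had 0 of 17, 2 higher and 5 lower at an unadjusted p below 0.05, 2 lower by DESeq2 and a median of −0.14. Nos3, the endothelial nitric oxide synthase, stood at 447, 515 and 423 CPM in control 9w and at 291 and 276 CPM in PFD, below all controls (−0.71, SE 0.33, BH-adjusted p = 0.202 in edgeR). The renin-angiotensin and endothelin list had 0 of 9, 1 higher and 3 lower at an unadjusted p below 0.05, 0 by DESeq2 and a median of −0.38. Genes of receptors and their kinases that act through protein kinase C had 0 DEGs of 50, 13 higher and 6 lower at an unadjusted p below 0.05, 2 higher and 1 lower by DESeq2, and a median of 0.04. Prkce stood at 8.12, 6.89 and 7.88 CPM in control 9w and at 17.9 and 15.4 CPM in PFD (1.12, SE 0.27, BH-adjusted p = 0.0505 in edgeR), and it missed the threshold by little.

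The stress lists held no DEG in edgeR, beside 0.783% of all tested genes, and their medians ranged from −0.01 to 0.50. Heat shock and chaperones had 0 DEGs of 17 in edgeR, 7 higher and 1 lower at an unadjusted p below 0.05, 2 higher by DESeq2 and a median of 0.31. Hspb1, a small chaperone of muscle, stood at 183, 198 and 253 CPM in control 9w and at 234 and 213 CPM in PFD, with overlap (0.08, SE 0.20, BH-adjusted p = 0.837 in edgeR). The unfolded protein response had 0 of 20, 0 higher and 1 lower at an unadjusted p below 0.05, 0 by DESeq2 and a median of −0.01. NRF2 targets had 0 of 21, 7 higher and 2 lower at an unadjusted p below 0.05, 3 higher by DESeq2 and a median of 0.28. For immediate early genes it was 0 of 22, 5 higher and 3 lower at an unadjusted p below 0.05, 1 higher by DESeq2 and a median of 0.50.

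Channels and growth genes completed the lists. Potassium and sodium channels had 0 DEGs of 29 in edgeR, 7 higher and 2 lower at an unadjusted p below 0.05, 3 higher and 1 lower by DESeq2, and a median of 0.50. Cell cycle genes had 0 of 25, 3 higher and 0 lower at an unadjusted p below 0.05, 2 higher by DESeq2 and a median of 0.42, which was −0.48 without PFD replicate 1 and 1.09 without PFD replicate 2. Cytosolic ribosomal proteins had 0 of 36, 1 higher and 0 lower at an unadjusted p below 0.05, 0 by DESeq2 and a median of −0.06. Camk2d, a calcium-dependent kinase of the heart, stood at 79.6, 85.0 and 58.9 CPM in control 9w and at 73.6 and 75.1 CPM in PFD, within the control range (SE 0.20, BH-adjusted p = 0.996 in edgeR). S100b, a calcium-binding protein of glia and Schwann cells, stood at 3.72, 2.58 and 4.59 CPM in control 9w and at 1.21 and 0.823 CPM in PFD (−1.84, SE 1.27, BH-adjusted p = 0.392 in edgeR).

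PFD and untreated hearts differed by 1 DEG (0.00807%), Scn1a, with 646 genes at an unadjusted p below 0.05. Scn1a, a voltage-gated sodium channel best known from neurons, stood at 39.9 and 26.5 CPM in PFD and at 7.70, 6.82 and 9.06 CPM in untreated hearts, without overlap. It rose by 2.08 over untreated (SE 0.28, BH-adjusted p = 0.0250 in edgeR). Control 9w hearts, at 15.2, 17.6 and 12.7 CPM, lay between the groups, and the rise over control 9w was 1.13 (SE 0.27, BH-adjusted p = 0.0505 in edgeR), short of the threshold. The count of PFD against untreated was 0 in 8 of 19 leave-one-out fits, those without PFD replicate 1, untreated replicate 2 or 3, control 9w replicate 1, control 5w replicate 3, either EMPA library or EMPA + PFD replicate 1, and it was 0 with only the libraries compared. DESeq2 called 4 DEGs between PFD and untreated, Scn1a, Cryl1, Ppm1e and Aif1l, of which Ppm1e was a DEG of PFD against control 9w. Of the 64 PFD DEGs that were not DEGs of untreated hearts, 0 differed from untreated after adjustment in edgeR, 29 did at an unadjusted p below 0.05, and 53 differed between untreated and control 9w at an unadjusted p below 0.05, as did 2259 of the 12388 tested genes.

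HFpEF and control 5w hearts, taken before treatment and sharing no library with PFD and control 9w, differed by 1076 DEGs (8.69%). Of these, 32 were DEGs of PFD, which made 2.97% of the HFpEF DEGs and 33.0% of the PFD DEGs. Only Angptl4, LOC100911498 and Milr1 changed in the same direction in both, 0.279% of the HFpEF DEGs and 3.09% of the PFD DEGs. The other 29 changed in opposite directions, 18 of them higher and 11 lower in PFD (29.9% of the PFD DEGs and 2.70% of the HFpEF DEGs). The 530 genes higher in HFpEF had a median log2 fold change of −0.53 in PFD, and the 546 genes lower in HFpEF had a median of 0.80, beside −0.03 for all genes.

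Milr1, an inhibitory receptor of mast cells, stood at 0.451, 0.738 and 0.698 CPM in control 9w and at 2.52 and 4.11 CPM in PFD, a rise of 2.38 (SE 0.48, BH-adjusted p = 0.0396 in edgeR) beside 3.45 in HFpEF at week 5. Its call was lost without PFD replicate 2 (BH-adjusted p = 0.251 in edgeR). Angptl4 rose by 2.27 in PFD and by 5.36 in HFpEF. Sphkap, Casq1 and Eef1a2 rose in PFD by 3.17, 1.89 and 2.75 and fell in HFpEF by 3.35, 1.64 and 2.20 on the log2 scale. Sox17, Id1 and Sgk1 fell in PFD by 1.45, 1.59 and 1.08 on the log2 scale and rose in HFpEF by 1.63, 1.67 and 2.12. The PFD DEGs that were not DEGs of HFpEF were not tested for the absence of a change at week 5, and Pdk4 (1.36) and RT1-CE14 (1.00) were higher in HFpEF without passing. Most lists of cell-type markers had medians of opposite sign in PFD and in HFpEF. For cardiomyocyte markers the medians were 0.84 in PFD and −1.13 in HFpEF, and for endothelial markers −0.44 and 0.69. Atrial (−6.48 and −1.43), leukocyte (0.18 and 0.54) and lymphocyte markers (0.03 and 1.45) kept their sign. The part of cell content in the opposite directions was not tested. The control 5w hearts were uneven, with cardiomyocyte marker sums of 72983, 28673 and 32080 CPM.

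Cell-type markers were summed per heart, and their part in the result was not tested. The 6 cardiomyocyte markers, of which Myh6 was the most abundant, summed to 29076, 34720 and 31171 CPM in control 9w and to 51394 and 58429 CPM in PFD, above all controls. The untreated sums were 54715, 15739 and 44963 CPM, with replicate 2 lowest. The 6 endothelial markers, led by Vwf, summed to 3331, 3322 and 2900 CPM in control 9w and to 2176 and 2304 CPM in PFD, below all controls. For the 6 fibroblast markers, led by Dcn, the sums were 2828, 2015 and 2710 CPM in control 9w and 2336 and 2488 CPM in PFD, within the control range. In bulk tissue, fewer cells of a type and less RNA per cell cannot be told apart.

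The 6 smooth muscle and pericyte markers (led by Rgs5) summed to 1115, 1041 and 997 CPM in control 9w and to 887 and 1043 CPM in PFD. The 6 leukocyte markers (Ptprc) summed to 239, 195 and 251 CPM in control 9w and to 257 and 221 CPM in PFD, and the 6 lymphocyte markers (Cd2) to 16.7, 12.8 and 12.4 CPM and to 7.45 and 16.8 CPM, both with overlap. Sums of the 5 erythroid markers (Hbb) were 1440, 1729 and 1111 CPM in control 9w and 670 and 812 CPM in PFD, lower in both PFD hearts. The 6 atrial markers (Nppa) summed to 5242, 199 and 23531 CPM in control 9w and to 2998 and 83.1 CPM in PFD, and the spread within each group exceeded that between them. Myl7, another atrial marker, had 9599, 84 and 42729 counts in control 9w and 235 and 31 in PFD, so control 9w replicate 2 lay within the PFD range. The median log2 fold change was −6.48 for the atrial markers, with −4.69 without control 9w replicate 3 and −7.81 without PFD replicate 1. It was −5.03, and −2.52 without control 9w replicate 3, for the mesothelial markers, of which Krt19 had at most 10 counts in any of the 5 hearts. None of the marker lists held a DEG in edgeR, while DESeq2 called 4 atrial markers lower and 1 lymphocyte marker higher. At an unadjusted p below 0.05 there were 1 higher cardiomyocyte, smooth muscle and lymphocyte marker each, and 2 endothelial, 5 atrial and 1 mesothelial markers lower.

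The 6 adipocyte markers (Fabp4) summed to 2637, 3660 and 1357 CPM in control 9w and to 2139 and 1744 CPM in PFD, within the control range. Schwann cell markers, 5 in number, summed to 95.3, 52.8 and 102 CPM in control 9w and to 30.3 and 55.6 CPM in PFD. The 3 mesothelial markers (Wt1) summed to 139, 194 and 106 CPM in control 9w and to 130 and 94.6 CPM in PFD. Sums for the 6 skeletal muscle markers (Tnnt3) were 41.2, 39.4 and 43.3 CPM in control 9w and 33.0 and 33.6 CPM in PFD, and for the 5 cartilage and bone markers (Chad) 9.70, 9.22 and 9.87 CPM and 5.26 and 7.82 CPM. No listed marker was at 0 in all 5 hearts.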

How the data were processed

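RNA of rat left ventricles was sequenced as 19 libraries. After trimming (Trim Galore), quality checks (FastQC) and alignment to rn6 (HISAT2), the authors counted reads per gene with HTSeq and deposited the raw counts. Versions, overlap mode, strand setting and annotation were not stated. The counts of column 2 of each file were read here and analyzed in R 4.3.3 with edgeR 4.0.16 (TMM, filterByExpr, quasi-likelihood F test) in a single model of the 7 groups, with Benjamini-Hochberg adjustment. The biological coefficient of variation was 0.257. SEs were derived from the log2 fold change and the F statistic. Where all libraries of a group had at most 3 counts, the fold is a bound with a floor of 3 counts per library.

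Members, lists and comparisons were chosen with earlier results of these data known. Genes were named by a rule: genes that check the labels, the 6 largest rises and 6 largest falls among DEGs without overlap and with a mean of at least 1 CPM, 6 each shared with untreated and 4 each shared with HFpEF, every DEG of PFD against untreated if at most 5, the DEGs of a list (at most 3) or its most abundant gene, and 16 genes of the literature. Some genes are not reported here, and the counts of DEGs include them. Genes outside the rule are marked as chosen after their values were seen. Alternatives were another normalization, other filters, DESeq2 1.42.0, smaller models, added terms and leaving out each library, where a lone library was assumed to vary like the other groups.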

Additional observations from a re-analysis of the deposited data

Results flagged for a closer look

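The change from control 9w to PFD was set against the change from control 5w to HFpEF by testing the difference of the 2 log2 fold changes in edgeR, a contrast added after the data were seen. A result is listed because this difference passed the DEG thresholds, as it did for 16 of 23 named PFD DEGs and for 2311 of all tested genes (18.7%). The named genes were chosen by their change in PFD, which is 1 arm of the difference, so a higher share among them is built in. The difference was positive for Sphkap (6.52), Cavin4 (4.73), Dyrk3 (3.62), Eno1 (2.04), Nfil3 (1.32) and Plin2 (1.25). It was negative for Pfkfb1 (−4.55), Ciart (−4.41), Il9r (−4.03), Tlx1 (−3.19), Angptl4 (−3.09), Dbp (−2.50), Per3 (−2.42), RT1-CE10 (−1.82), Tef (−1.56) and Smad7 (−1.48). Angptl4 was higher in both comparisons and by less in PFD.

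Scn1a is listed because PFD and untreated hearts differed at week 9, by 2.08 on the log2 scale. The 29 DEGs of HFpEF against control 5w that were DEGs of PFD against control 9w with the opposite direction are listed for their opposite direction, and a passed test of the difference follows from how they were selected. The comparisons differ in age, time point and, for HFpEF replicate 2, in Eif2s3y counts. They also differ in RT1 genes, for RT1-Bb had 0 counts in every week 5 library and 104 to 311 counts in control 9w, untreated and PFD libraries. No explanation was tested. No group had the 4 samples that a search for single distant samples needs.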

How the results depend on the processing

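Many calls were lost when 1 of the 2 PFD libraries was left out, a fit in which few genes can pass. Most were also lost without control 9w replicate 1 or 2, which kept 5 and 4 calls and left more than 1 library per compared group. The changes moved less for some genes. Over the leave-one-out fits Bcl6 ran from −1.8 to −1.55, Pfkfb1 from −3.57 to −3.14 and Cavin4 from 2.84 to 3.31. Dyrk3 ran from 1.9 to 3.62 and Fcrla from 2.45 to 4.77. Depth of 7430539 to 13017754 counts limits what can be said of genes with a few counts. Leaving out 1 library at a time, the DEGs ranged from 2 to 475 for PFD against control 9w, 7 to 413 for untreated against control 9w, 0 to 2 for PFD against untreated and 730 to 1228 for HFpEF against control 5w. The DEGs shared by untreated and PFD ranged from 1 to 265, and those shared by HFpEF and PFD in the same direction from 0 to 8. A group left with 1 library was assumed to vary like the others.

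For the same 6 counts, in the same order (97, 113, 1, 1076, 33 and 3 as reported), DESeq2 gave 437, 297, 4, 1271, 109 and 9. With only the libraries of the compared groups they were 570, 105, 0, 460, 50 and 4. With a term for Eif2s3y counts they were 3, 2, 1, 815, 2 and 1. By adjusted p alone they were 193, 220, 1, 2478, 72 and 5. Without a count filter there were 48 DEGs of PFD against control 9w and 2 against untreated, and with at least 10 counts in every library the last count was 1. With HFpEF reduced to its Eif2s3y-positive library, an alternative chosen after seeing the data, 2 DEGs separated PFD and untreated. Relative log expression normalization kept all 6 counts within 1.5 times. In each case the cause was not tested, beyond the fewer libraries or terms the alternative itself brings.

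The replicate block, a term for the replicate number, gave 7, 62, 0, 932, 3 and 0. No pairing of hearts by this number is described. After the group means were removed, PFD and control 9w libraries of the same number correlated at −0.137 and 0.056. With 2 PFD libraries the centered values mirror each other, so these correlations cannot decide whether hearts were paired.

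Of the named genes, none that was a DEG with edgeR changed sign by DESeq2, and 88 kept their side of the threshold, 7 gained and 1 lost the call. With relative log expression 93 kept it and 3 lost it, without a filter 80 and 16, and with the replicate block 56 and 40. Over the leave-one-out fits 1421 values kept their side, 372 lost and 21 gained the call. Signs changed in these fits for Nppb (−1.39 to 1.06), Camk2d (−0.15 to 0.10), Hspb1 (−0.01 to 0.23), Col3a1 (−0.07 to 0.46), Postn (−1.48 to 1.24) and Chad (−0.73 to 0.09). With only the compared libraries Camk2d was at 0.01. None of these genes passed the test in any such fit, and the cause was not tested. Genes that failed the stricter filter had no value there. List medians moved by more than the spread in 8 of the leave-one-out values, and 733 did not. The median of cell cycle genes ran from −0.48 to 1.09, of lymphocyte markers from −1.37 to 0.83, of adipocyte markers from −0.14 to 3.13, of extracellular matrix from −0.15 to 0.38 and of cytokines from −0.37 to 0.25, so their direction turned on single hearts.

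With the Eif2s3y term the sign changed for 17 genes, none past the threshold: Eif2s3y 0.08, LOC100911498 −1.64, Col1a1 −0.75, Col3a1 −0.73, Postn −2.56, Nppb −1.56, Myh7 −1.07, Acta1 −0.05, Nos3 0.15, Hspb1 −0.23, Cxcl12 0.07, Vegfa 0.09, Cryab −0.14, Hspa5 −0.39, Dcn 0.23, Fabp4 0.81 and Wt1 0.11. Of the other named genes, 37 kept their side of the threshold with the term and 42 lost the call. The changes of Eif2s3 and Plin2 were each 0.09 with it. The term is estimated from the HFpEF group alone, the only one with both kinds of library, and the cause of these changes was not tested.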
